A study of Mus musculus with 4 samples.

Results

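The genes of the HIF-1 pathway described here are Hif1a, the prolyl hydroxylases Egln1, Egln2 and Egln3, and 6 target genes of HIF-1, Vegfa, Adm, Bnip3, P4ha1, Ankrd37 and Ndrg1. They were taken by gene name from the array annotation, and 17 probes carry these 10 names among 39429 probes with 31093 names. The cells were IMS32, an immortalized line of mouse Schwann cells, kept for 1 h in serum-containing medium with normal (5 mM) or high (15 mM) glucose and with 1 mM pyruvate or none. The groups are termed [Glc 5 mM/Pyr (+)] with both nutrients at the normal level, [Glc 5 mM/Pyr (−)] without pyruvate, [Glc 15 mM/Pyr (+)] with high glucose, and [Glc 15 mM/Pyr (−)] with high glucose and no pyruvate. The question was how the transcripts of the pathway responded to the loss of pyruvate at each glucose concentration. Each group was 1 RNA sample on 1 one-colour array, and the 4 arrays lay on 1 slide. Condition, culture and array therefore cannot be told apart, and no difference between groups has a replicate check.

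HIF-1 is a transcription factor made of the oxygen-regulated subunit encoded by Hif1a and the stable partner Arnt. The hydroxylases of the Egln family use oxygen, iron and 2-oxoglutarate, an intermediate of the TCA cycle, to modify prolines of the subunit, which the VHL ubiquitin ligase then marks for degradation. Pyruvate and several TCA cycle intermediates are known to influence these enzymes. Most of this control acts on the protein, whereas the arrays measured transcripts only. When the subunit is stable, HIF-1 binds short DNA motifs near genes for glucose uptake, glycolysis, vessel growth, mitophagy and collagen modification.

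The core of the DNA motif bound by HIF-1 is ACGTG or GCGTG. RefSeq promoter windows of the mouse build GRCm38.p6 were matched for 9 of the 10 genes, in 11 windows, because Egln2 and Vegfa have more than 1 annotated start. Both motifs were searched on both strands in the 250 bases before each start. At least 1 of them was found in 38.6% of all 32851 windows, ACGTG alone in 16.6% and GCGTG alone in 28.2%, each counted with or without the other. The 3 windows below are shown because they belong to the target with the largest difference between arrays (Ankrd37), the target next to it (Adm) and a target with bright signal and small differences (Bnip3). Capitals mark either motif, in either orientation, so that CACGT and CACGC are the reversed forms.
Ankrd37: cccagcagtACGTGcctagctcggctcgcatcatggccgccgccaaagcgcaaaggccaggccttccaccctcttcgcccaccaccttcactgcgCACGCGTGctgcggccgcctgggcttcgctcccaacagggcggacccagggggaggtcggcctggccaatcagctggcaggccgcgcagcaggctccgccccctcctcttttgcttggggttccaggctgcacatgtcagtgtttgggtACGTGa
Adm: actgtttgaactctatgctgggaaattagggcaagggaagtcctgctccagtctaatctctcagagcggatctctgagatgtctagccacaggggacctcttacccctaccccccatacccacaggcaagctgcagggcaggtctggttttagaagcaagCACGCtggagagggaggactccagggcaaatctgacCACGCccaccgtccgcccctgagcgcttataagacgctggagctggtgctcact
Bnip3: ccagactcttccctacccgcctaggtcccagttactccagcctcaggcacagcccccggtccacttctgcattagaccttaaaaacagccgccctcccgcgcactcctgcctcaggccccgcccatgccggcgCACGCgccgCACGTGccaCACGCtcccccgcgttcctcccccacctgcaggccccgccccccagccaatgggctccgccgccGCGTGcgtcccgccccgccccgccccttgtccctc
The Ankrd37 window lies at chr8:45999851-46000100 on the minus strand, the Adm window at chr7:110627407-110627656 on the plus strand and the Bnip3 window at chr7:138909507-138909756 on the minus strand. Ankrd37 held ACGTG 2 times, of which the nearer match ends 2 bases before the start, and it held GCGTG 2 times, as overlapping matches on opposite strands. Adm held GCGTG 2 times and no ACGTG. Bnip3 held ACGTG 2 times and GCGTG 3 times, and its ACGTG matches are the 2 strands of a single palindrome, CACGTG, which 6.02% of all windows contain. Bnip3 had the most matches of the 3, with its palindrome counted on both strands. A relation of the motif counts to the differences given below was not tested. A match is a description of the letters and not a binding site.

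**Figure D1:**
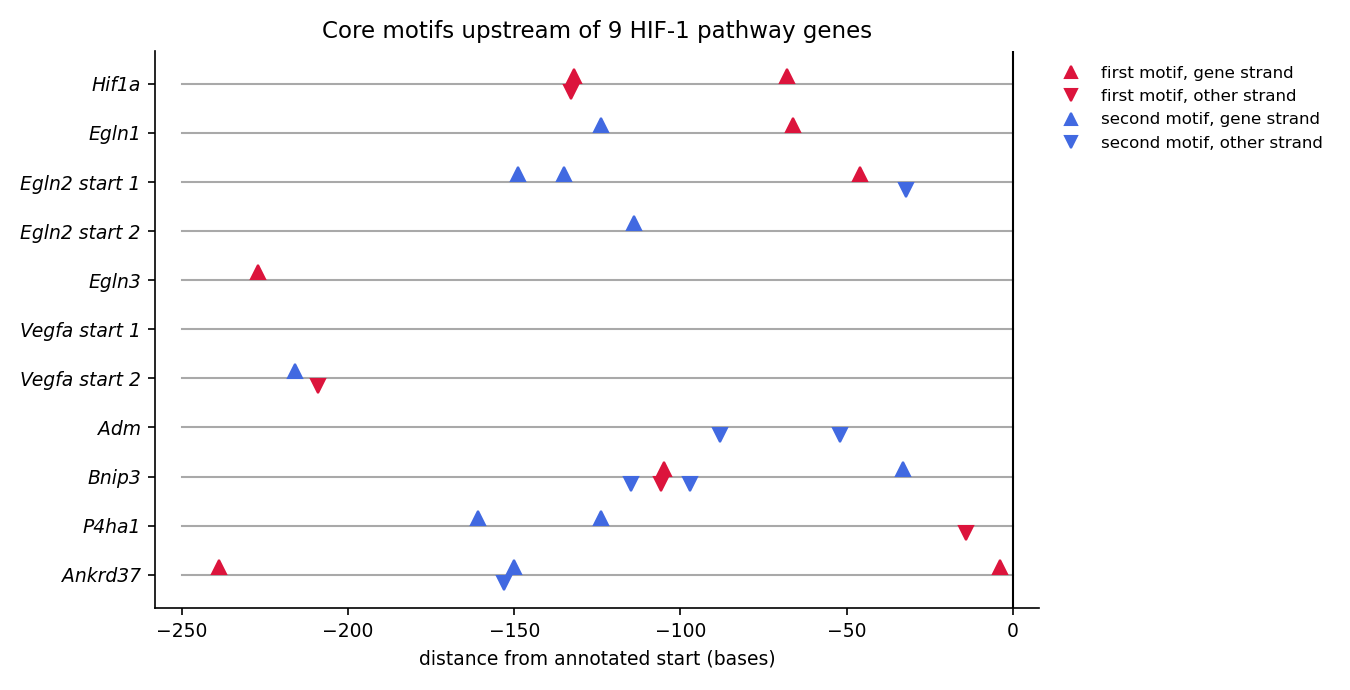
Positions of the core motifs in the 250 bases before 11 annotated starts of 9 genes. The horizontal axis is the distance from the start in bases, each grey line is 1 window, red triangles mark ACGTG and blue triangles GCGTG, pointing up for the strand of the gene and down for the other strand. Matches are seen in 10 of the 11 windows, and Vegfa start 1 has none.

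All 3 windows shown and those of Egln1, Egln3, Hif1a and P4ha1 held at least 1 match, as did both windows of Egln2. Of Vegfa, the first window held none and the second, which starts inside the gene, held 1 of each motif. No window was matched for Ndrg1.

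The deposited scanner values are spot intensities after background correction. For comparisons, each log2 intensity had the 75th percentile of its array subtracted, and a difference is between 2 arrays on this log2 scale. Between 28473 and 30347 probes were well above background on an array, and no spot was saturated. The error given is the SD expected for a difference of 2 single spots, from 399 probes printed 10 times on each array, and it covers variation within an array only. The labelled cell type was checked with 15 Schwann cell markers, all above background on all 4 arrays, with a summed level of 51.0 to 58.0 times the 75th percentile. Ncam1 was the brightest, while the receptor Erbb3 was dim, with at most 22.2 units. Markers of other cells were also present, 4 of 5 for fibroblasts, 6 of 6 for macrophages, 2 of 4 for endothelium and 3 of 4 for neurons on all arrays, with summed levels of 6.44 to 7.46, 6.80 to 8.88, 2.66 to 3.20 and 4.68 to 6.55. The endothelial marker Cdh5 was not above background on any array, and the part of such cells in the results below was not tested.

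Of the 17 probes, 15 probes of 9 genes were well above background on all 4 arrays, each from a single spot. The exception was Egln3, a hydroxylase that is itself a HIF-1 target. Its probe 1 gave 9.43 intensity units with and 7.37 without pyruvate at normal glucose, and 4.10 with and 8.30 without it at high glucose, and probe 2 gave 9.74, 7.08, 3.53 and 8.39. Both were well above background in [Glc 5 mM/Pyr (+)] only, where the dimmest such probe of the array gave 8.60 units. No fold is given for Egln3, whose signal lay near or below the detection limit in every condition.

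**Figure D2:**
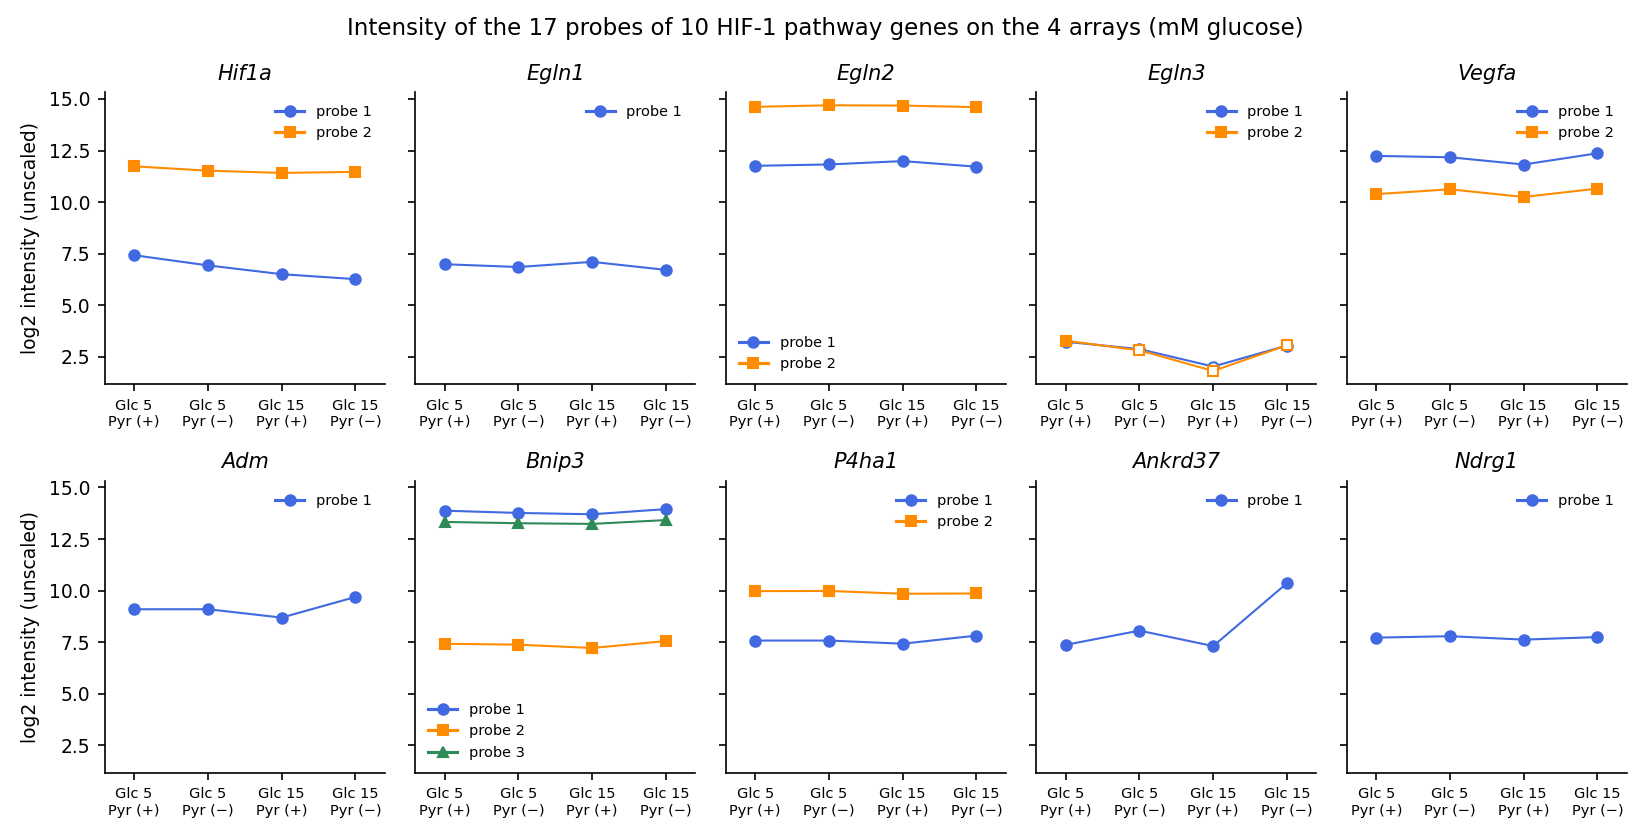
Log2 intensity (vertical axis, before scaling between arrays) of the 17 probes on the 4 arrays (horizontal axis, glucose in mM), 1 panel per gene and 1 point per array, with open symbols where a probe was not well above background. Ankrd37 reaches 1315 units in [Glc 15 mM/Pyr (−)] against 159 to 267 on the other arrays, whereas most other probes run nearly flat.

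Ankrd37, which encodes a protein with ankyrin repeats and is known as a HIF-1 target, showed the largest difference of the 10 genes. Its probe A_52_P319438 (chr8:47082404-47082463 in mm9, minus strand) gave 166 units with and 267 without pyruvate at normal glucose, and 159 with and 1315 without it at high glucose. The array with high glucose and no pyruvate was thus far above the other 3, and [Glc 5 mM/Pyr (−)] was next. The 2 arrays with pyruvate differed by 0.10 ± 0.13 (log2), which is within the spot error. Relative to the array with pyruvate at the same glucose, the signal without pyruvate was 8.09-fold higher at high glucose, a log2 difference of 3.02 ± 0.11. At 5 mM glucose it was 1.65-fold higher, 0.73 ± 0.13 on the log2 scale. The first of these differences ranked 3 from the top of 27784 probes measured on both arrays, and the second ranked 285 of 29089. Between the arrays without pyruvate, high glucose gave a 5.24-fold higher signal, a log2 difference of 2.39 ± 0.10, which shares an array with the first. Whether the pyruvate difference depended on glucose was not tested. Some markers of other cell types were also highest on the array with high glucose and no pyruvate, from lists with mixed directions. The macrophage marker Cd68 gave 969 units with and 1817 without pyruvate at high glucose, a log2 difference of 0.88. The neuronal marker Rbfox3 gave 8.90 and 42.7 units on these arrays, at least 3.99-fold higher without pyruvate. The neuronal marker Tubb3 gave 337 and 423 units, and the fibroblast marker Dcn 871 and 962 units. Their log2 differences were 0.30 and 0.11. Of the 6 macrophage markers, 4 were higher and 2 lower without pyruvate between these arrays. Of the 3 neuronal markers measured on both arrays, 2 were higher and 1 lower. Of the 4 fibroblast markers so measured, 2 were higher and 2 lower, while 56.9% of all genes were higher. The summed macrophage level was 6.85 without and 6.80 with pyruvate at high glucose, against 8.37 and 8.88 at normal glucose. For neurons it was 4.68 and 4.94, against 6.09 and 6.55. The part of such cells in the difference of Ankrd37 was not tested.

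The member probes past 2-fold were counted against all probes, with a probe that was dim on 1 array counted by its lower bound. For the loss of pyruvate at high glucose, Ankrd37 was the 1 probe past 2-fold among the 15 member probes that could be compared, while 4.17% of all probes were past 2-fold. This background includes dim probes, and it was 1.96% (542 of 27590) among probes well above background on all 4 arrays and 0.442% (131 of 29608) with normexp background correction. At 5 mM glucose 0 of 17 were past 2-fold, against 2.67% of all probes. For 15 against 5 mM glucose the count was 0 of 17 with pyruvate, against 2.5% of all probes, and 1 of 15 without pyruvate, again Ankrd37, against 4.37%. Among so few probes, these shares cannot be set apart from the background. At a threshold of 1.5-fold, Adm joined Ankrd37 at high glucose, against 9.71% of all probes, and also in the comparison of glucose without pyruvate, against 10.4%. At normal glucose Ankrd37 alone passed 1.5-fold, against 5.39% of all probes.

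The secreted factors Adm and Vegfa followed. Adm encodes adrenomedullin, a peptide that widens vessels, and its probe gave 548 units with and 549 without pyruvate at normal glucose, and 414 with and 828 without it at high glucose. The 2 arrays at normal glucose were alike, while those at high glucose held the lowest and the highest value. The loss of pyruvate gave 0.97 ± 0.09 (log2), or 1.96-fold, at high glucose against 0.04 ± 0.11 at normal glucose. With pyruvate, high glucose gave a log2 difference of −0.24 ± 0.10 from normal glucose. Without pyruvate this difference was 0.69 ± 0.10.

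Vegfa encodes the vascular endothelial growth factor and was measured by 2 probes at chr17:46154387-46154446 and chr17:46162376-46162435 (mm9, minus strand). Probe 1 gave 4838 units with and 4619 without pyruvate at normal glucose, and 3623 with and 5282 without it at high glucose. Probe 2 gave 1340, 1576, 1218 and 1614 on the same arrays. Before scaling, both probes had their lowest value in [Glc 15 mM/Pyr (+)], whereas the highest was that of [Glc 15 mM/Pyr (−)]. After scaling the highest stayed there, but the lowest value of probe 2 was in [Glc 5 mM/Pyr (+)]. The pyruvate difference at high glucose was 0.51 ± 0.08 on probe 1 and 0.38 ± 0.09 on probe 2 (log2), or 1.43-fold and 1.30-fold. At 5 mM glucose the probes disagreed, with −0.03 ± 0.09 on probe 1 and 0.27 ± 0.09 on probe 2.

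Bnip3, which encodes a receptor for mitophagy in the outer mitochondrial membrane, had 3 probes within a stretch of the same transcript end. Probe 1 gave 15004 units with and 13907 without pyruvate at normal glucose, and 13299 with and 15809 without it at high glucose. Probe 3 gave 10285, 9846, 9625 and 10948, and the dimmer probe 2 gave 172, 167, 149 and 188. Before scaling, all 3 probes had their lowest and highest values at high glucose, the former with pyruvate and the latter without. After scaling the highest stayed there, but the lowest values of probes 1 and 3 were in [Glc 5 mM/Pyr (−)]. The pyruvate differences of probes 1, 2 and 3 on the log2 scale were 0.22 ± 0.08, 0.30 ± 0.13 and 0.16 ± 0.08 at high glucose, none above 1.23-fold. At 5 mM glucose they lay between −0.07 and −0.01, each within its spot error.

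P4ha1 encodes the catalytic subunit of collagen prolyl hydroxylase, which like the Egln enzymes uses 2-oxoglutarate. Its probe 1 gave 192 units in both groups at normal glucose, and 172 with and 226 without pyruvate at high glucose, and probe 2 gave 1008, 1013, 923 and 932. The probes disagreed at high glucose, where the pyruvate difference was 0.36 ± 0.12 on probe 1 and −0.02 ± 0.09 on probe 2. Ndrg1, a stress-responsive gene that HIF-1 is known to induce, gave 211 units with and 222 without pyruvate at normal glucose, and 198 with and 215 without it at high glucose. Its pyruvate differences of 0.11 ± 0.13 and 0.09 ± 0.11 at normal and high glucose did not pass the spot error.

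The hydroxylases Egln1 and Egln2 had lower values without pyruvate at high glucose, with small differences. Egln1, the main hydroxylase of HIF-1 in most cells, gave 127 units with and 116 without pyruvate at normal glucose, and 138 with and 105 without it at high glucose. The pyruvate difference was −0.42 ± 0.15 at high glucose and −0.10 ± 0.17 at normal glucose (log2). Egln2, a nuclear hydroxylase, was read by a probe at 3469, 3631, 4063 and 3369 units on the 4 arrays in that order, and by a brighter one at 25124, 26460, 26225 and 24855 units. After scaling, Egln1 and both probes of Egln2 had their highest value in [Glc 15 mM/Pyr (+)]. With pyruvate, high glucose differed from normal glucose by 0.28 ± 0.16 for Egln1, and by 0.39 ± 0.09 and 0.22 ± 0.08 for Egln2. Under spike-in scaling these became −0.02, 0.09 and −0.08. Without pyruvate the glucose differences were −0.05 ± 0.17, −0.02 ± 0.09 and 0.002 ± 0.07. At 15 mM glucose the pyruvate difference was −0.30 ± 0.09 on probe 1 and −0.11 ± 0.07 on probe 2. At 5 mM glucose it was 0.11 ± 0.09 and 0.11 ± 0.08, values that turned to −0.06 and −0.05 when the arrays were scaled to the spike-in probes.

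Hif1a was read by 2 probes 13.3 kb apart on chromosome 12, of which probe 2 (chr12:75047269-75047329 in mm9, plus strand) was designed on the RefSeq transcript and probe 1 (chr12:75033965-75034024) on a cDNA clone. Probe 2 gave 3406 units with and 2945 without pyruvate at normal glucose, and 2733 with and 2829 without it at high glucose. Its differences ran from −0.17 to 0.03 over the 4 comparisons, with spot errors of 0.09. Probe 1 gave 172 units with and 122 without pyruvate at normal glucose, and 91.1 with and 77.2 without it at high glucose. Its difference between high and normal glucose was −0.76 ± 0.15 (log2) with pyruvate and −0.57 ± 0.18 without. With pyruvate it was the 1 member probe past 1.5-fold, as were 5.3% of all probes. Its pyruvate differences were −0.45 ± 0.14 and −0.27 ± 0.19 at normal and high glucose. Thus the probes for Hif1a disagreed, and the transcript that probe 1 reads was not determined.

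**Figure D3:**
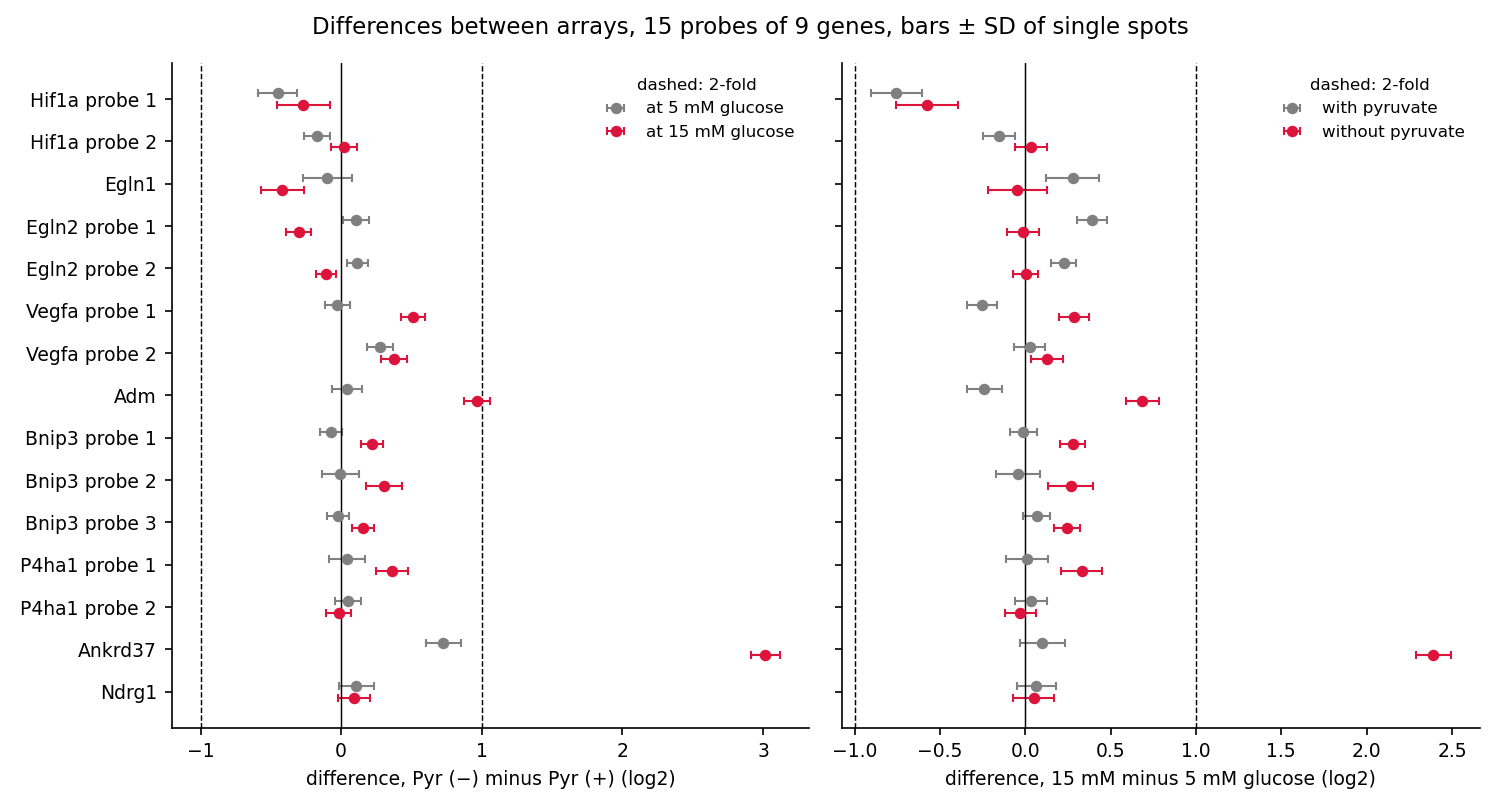
Log2 differences between arrays for the 15 probes well above background on all arrays, for the loss of pyruvate (left) and for 15 against 5 mM glucose (right). Points are single differences, bars are ± the SD of single spots, dashed lines mark 2-fold, and Ankrd37 is the sole probe beyond them, at 3.02 and 2.39.

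By role, 9 of the 10 target probes were higher without pyruvate at high glucose, and 8 of the 10 differences passed the spot error. That bar is low, since 44.3% of all probes differed by at least as much as Bnip3 probe 3 (0.16), the smallest that passed. The median of the target probes was 0.33 (log2), while 55.9% of all probes were higher with a median of 0.028. The target probe that was lower was probe 2 of P4ha1. At 5 mM glucose 6 of the 10 target probes were higher, 2 of the 10 differences passed the spot error and the median was 0.04, while 44.5% of all probes were higher. Of the 5 probes for Hif1a and the hydroxylases, 4 were lower at high glucose, with a median of −0.27, and 3 were lower at normal glucose. Of all probes, 55.9% and 44.5% were higher in these comparisons. For glucose without pyruvate, which shares an array with the comparison at high glucose, 9 of the 10 target probes were higher, with a median of 0.27, as were 55.8% of all probes. With pyruvate 6 of the 10 were higher, with a median of 0.02, as were 45.8% of all probes. Probes of 1 gene are not independent, and these counts are a description of single arrays. The genes were also chosen with earlier results of these data known. Of the 15 differences for the loss of pyruvate at high glucose, 14 kept their sign under all 8 other settings of scaling, background correction and filtering. The exception was Hif1a probe 2 at 0.02. The 2 filters on dim probes leave the differences of these probes unchanged, so they are no check of the sign. In the 5 mM comparison 8 of the 15 kept their sign, so that directions there are weakly set.

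The sole test across all probes was an additive fit in limma of pyruvate and glucose over the 4 arrays, which takes any dependence of the pyruvate difference on glucose as error and has 1 residual degree of freedom. It called 0 of 31278 probes for pyruvate and 0 for glucose at an adjusted p under 0.05 (0% of all probes), while 1078 and 1497 had an unadjusted p under 0.05. The smallest adjusted p of the member probes was 0.985 for pyruvate and 0.772 for glucose. For Ankrd37 the limma coefficient for the loss of pyruvate was 1.87 ± 0.72 (log2, SE), with an unadjusted p of 0.0916. For Hif1a probe 1 the glucose coefficient in limma was −0.66 ± 0.11, with an unadjusted p of 0.0121.

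Further genes of the pathway had median differences near those of all genes. Of 60 other HIF-1 targets, 55 were measured in the comparisons, and the median difference for the loss of pyruvate was −0.0007 at normal glucose and 0.07 at high glucose (log2), beside −0.02 and 0.03 over all genes. At 15 mM glucose 35 of the 55 were higher, and 56.9% of all genes were. The 18 genes for glucose uptake and glycolysis had medians of 0.02 and 0.05 at normal and high glucose and a range of −0.14 to 0.56 at the latter, where the monocarboxylate carrier Slc16a3 was the highest of them. The 8 measured secreted and vascular factors had medians of −0.18 and 0.06. Within this group Edn1, the gene for endothelin, was the lowest of all 55 at normal glucose (−0.67). The highest at normal glucose was Pfkfb3, which makes an activator of glycolysis (0.40), though its 2 probes disagreed in size, at 0.15 and 0.66.

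Ddit4, an inhibitor of mTOR signalling that is also induced by ATF4, was the sole gene of the 55 past 2-fold. It gave 13498 units with and 17203 without pyruvate at normal glucose, and 14269 with and 30299 without it at high glucose, highest on the same array as Ankrd37. Its pyruvate difference was 1.06 at high glucose and 0.39 at normal glucose (log2), and 2.16% of all genes measured on both arrays were past 2-fold in the former comparison. Ppp1r3c, a glycogen-targeting subunit of protein phosphatase, was above background in [Glc 15 mM/Pyr (−)] only, at 81.2 units against 6.39 to 8.74 on the other arrays. Its signal was at least 7.57-fold higher than with pyruvate at high glucose. It was singled out after its values were seen. Car12, Epo, Lox and Mxi1 gave no measured difference.

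All 22 regulators of the pathway were measured, with a median pyruvate difference of −0.0006 at both glucose concentrations and 0 of 22 past 2-fold, against 1.18% of all genes at normal and 2.16% at high glucose. Siah2, a ubiquitin ligase that acts on the Egln hydroxylases, was the highest at both concentrations, with 0.30 at normal and 0.82 at high glucose. It gave 1378 units with and 1646 without pyruvate at normal glucose, and 1192 with and 2152 without it at high glucose. The lowest at high glucose was Hif1an, the asparagine hydroxylase of HIF (−0.43). The lowest at normal glucose was Hif3a, a subunit that can oppose HIF-1 (−0.34), with −0.57 and −0.12 on its 2 measured probes. All 5 genes of the VHL ubiquitin ligase were higher without pyruvate at high glucose, by 0.02 to 0.43, with Vhl itself at the top, and 2 of the 5 at normal glucose, beside 56.9% and 43.9% of all genes. Both coactivators, Ep300 and Crebbp, were lower without pyruvate at high glucose (−0.15 each) and higher at normal glucose, by 0.15 and 0.17.

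**Figure D4:**
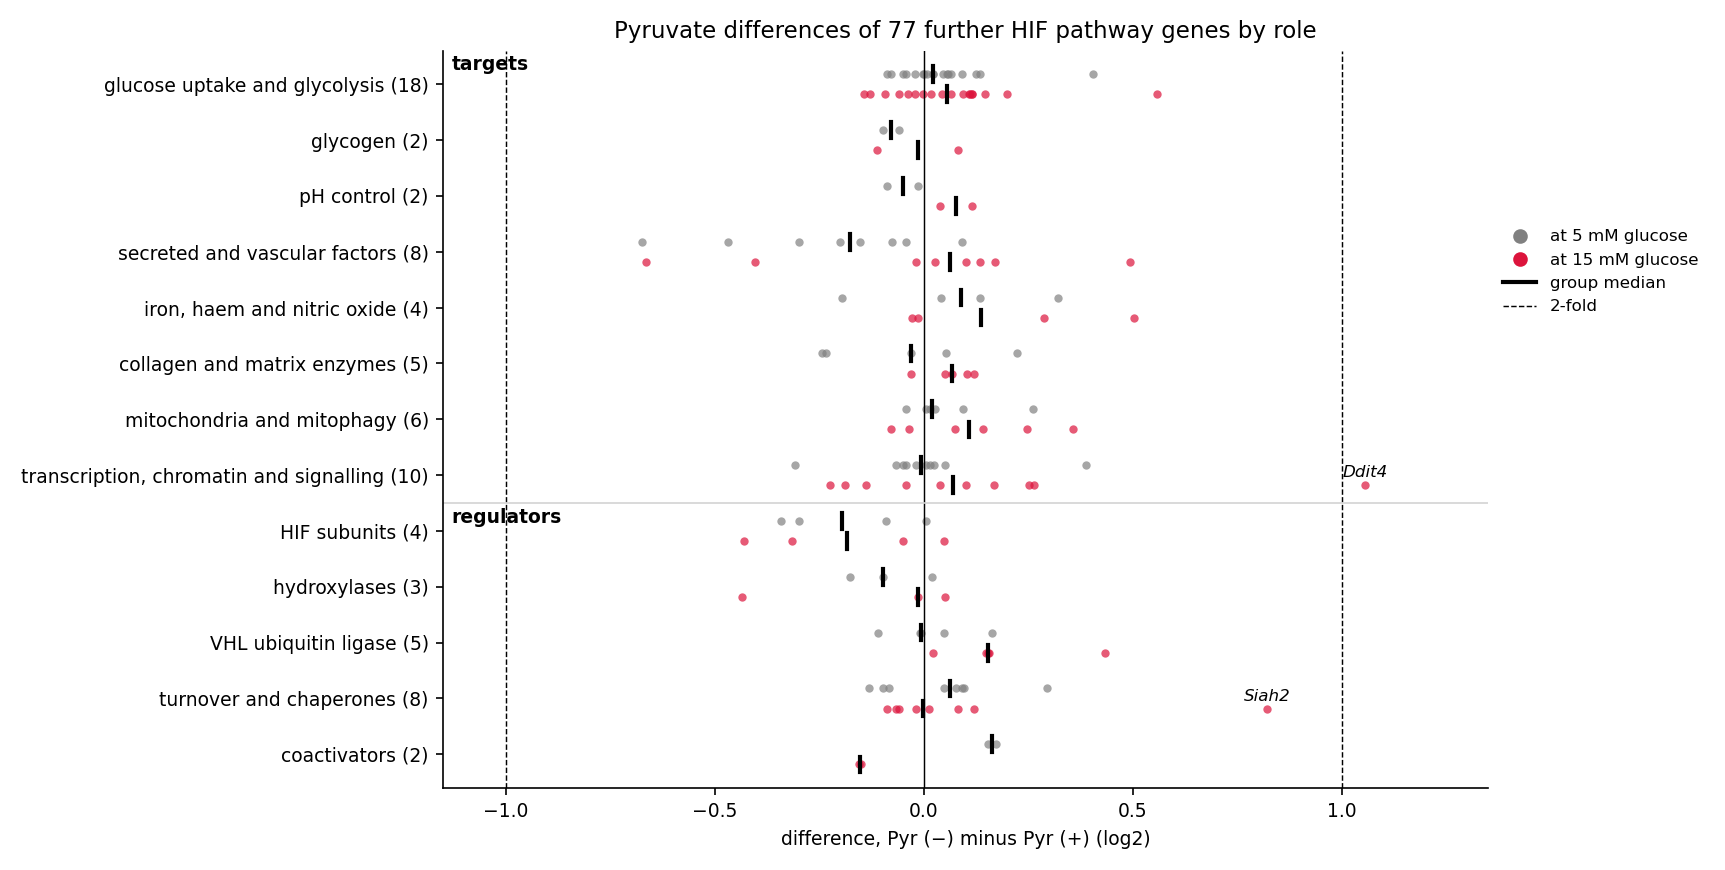
Log2 differences for the loss of pyruvate of 55 other HIF-1 targets and 22 regulators by role, with 1 point per gene (grey at 5 mM, red at high glucose), black bars for group medians and dashed lines at 2-fold. Ddit4 at 1.06 is the sole point past 2-fold, and group medians lie between −0.20 and 0.16.

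The genes with the profile most like that of Ankrd37 over the 4 arrays, by Euclidean distance between mean-centred log2 profiles, were Lsmem1 at 0.25, Fgf18 at 0.48 and Gzmm at 0.58. Lsmem1 gave log2 levels relative to the 75th percentile of −6.23 with and −5.77 without pyruvate at normal glucose, and −6.39 with and −3.13 without it at high glucose. Its signal was thus dim outside [Glc 15 mM/Pyr (−)], although well above background on all 4 arrays. Fgf18, a growth factor gene, gave −3.56, −3.19, −3.60 and −1.09 on the same scale. As for Ankrd37, both were highest in [Glc 15 mM/Pyr (−)], with [Glc 5 mM/Pyr (−)] next. With 4 arrays such likeness is a description only.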

How the data were processed

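Transcripts of IMS32 cells were measured on 4 arrays, 1 per condition. The authors deposited scanner output of Agilent Feature Extraction 11.5.1.1 (version per the labels), whose processed signal is an intensity after background correction. The deposited value table holds the same signal as a ratio to a constant of each array, and all 44397 features of every array matched within 1e-06. GeneSpring GX is named in the methods without settings.

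Control and outlier spots were removed, and repeated spots averaged. The 75th percentile of the array (1597 to 1788 units) was subtracted on the log2 scale. A probe had to be well above background on at least 1 array of a comparison, and a probe dim on the other array gave a lower bound. With 1 array per condition no test was made between arrays, and the threshold was 2-fold. The number of arrays limits the precision. A gene is the mean over its probes measured on both arrays. The SD of single spots at a probe's level is the median of the 50 nearest of the 399 replicated probes. The additive fit used limma 3.58.1 under R 4.3.3, with Benjamini-Hochberg adjustment over 31278 probes, and Python 3.11.15 (pandas 2.3.3, numpy 2.4.6) served for the rest. The fold count and the fit were checked on simulated data. The files give probe positions in mm9, and promoter windows are from RefSeq.

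The members and all lists were chosen with earlier results of these data known. The genes named are the 10 members, listed genes past 2-fold in a comparison, the highest and lowest of each HIF list for the loss of pyruvate, the 3 profiles nearest to the member with the widest range, and the brightest and undetected markers. Ppp1r3c, Slc16a3, Vhl, Ep300, Crebbp, Erbb3, Cd68, Rbfox3, Tubb3, Dcn and the unmeasured genes are named outside this rule. A gene taken by the rule is not reported here, though it was kept in counts and medians. Alternatives were the percentile over probes bright on all arrays, quantile, cyclic loess and spike-in scaling (9 of 10 probes), the deposited ratio, normexp (offset 50), 2 filters on dim probes, 1.5-fold, genes by their brightest probe and an intensity trend in limma.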

Additional observations from a re-analysis of the deposited data

Results flagged for a closer look

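Egln2 had pyruvate differences of opposite sign at the 2 glucose concentrations on both of its probes, each beyond the SD of single spots. On probe 1 the difference was 0.11 at normal glucose and −0.30 at high glucose (log2), and the value at high minus that at normal glucose was −0.406. On probe 2 these values were 0.11 and −0.11, which differ by −0.222. Between high and normal glucose, probes 1 and 2 differed by 0.39 and 0.22 with pyruvate, and by −0.02 and 0.002 without it. The change between glucose concentrations was not tested, and with 1 array per condition it has no replicate check. Under spike-in scaling both probes were lower without pyruvate at both concentrations.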

How the results depend on the processing

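Of 508 member differences recomputed under the alternatives, 453 moved by less than the SD of single spots, 55 moved by more and 0 counted as reversed. Only a difference past 2-fold could count as reversed, so smaller differences that changed sign are not in that count. The 2 filters on dim probes reuse the same values, so their entries could not move. Of 126 counts and medians, 112 stayed within their limits. Spike-in scaling shifted the median of all probes to −0.19 for the loss of pyruvate at normal glucose, −0.32 for high against normal glucose with pyruvate, −0.12 for the same without pyruvate, and to 0.007 for the loss of pyruvate at high glucose. The medians of the other HIF-1 targets then became −0.17, −0.30 and −0.077 in the first 3 comparisons, and those of the regulators −0.17, −0.34 and −0.16, each close to the shift of all probes. For glucose with pyruvate 1 member probe was then past 2-fold, Hif1a probe 1 at −1.06. Without a filter on dim probes, the counts past 2-fold were 2 for pyruvate at high glucose and 2 for glucose with pyruvate, where Egln3 entered. At 1.5-fold they were 1 and 2 for pyruvate at normal and high glucose, then 1 (with pyruvate) and 2 (without) for glucose. With normexp the additive fit called 2 probes for pyruvate, none a member.

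For Ankrd37 the difference at high glucose ran from 2.58 (normexp) to 3.02, at normal glucose from 0.56 (spike-in scaling) to 0.76, and for glucose without pyruvate from 2.17 to 2.42. Adm at high glucose ran from 0.83 to 0.98 and stayed below 2-fold. Over the 60 differences of well measured probes, 38 kept their sign under every setting and 55 did so apart from spike-in scaling. The background is sensitive to dim probes: with normexp 42, 131, 40 and 154 probes were past 2-fold, and of the 27590 probes well above background on all arrays 231, 542, 216 and 597, against 821 of 30768, 1236 of 29608, 766 of 30600 and 1320 of 30223 in the order pyruvate at 5 and 15 mM, glucose with and without pyruvate. Without the filter they were 1648, 2539, 1621 and 2752, and at 1.5-fold 1658, 2875, 1621 and 3145. For glucose with pyruvate 337 of 766 calls were higher, against 406 of 748 by quantile normalization and 252 of 1027 by spike-in scaling. Spike-in scaling gave 333 higher of 867 against 404 of 821 for the loss of pyruvate at normal glucose, 629 of 1235 against 653 of 1236 for its loss at high glucose, and 472 of 1453 against 585 of 1320 for glucose without pyruvate. No paired analysis was possible because each group has 1 array. The signal of Egln3 near background limits what can be said of that gene.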
